A study of Rattus norvegicus with 32 samples.

Results

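The genes described here carry names tied to motile cilia, the beating hairs on the ependymal cells that line the brain's ventricles. They were chosen by name from the deposited count table: all rows named Dnah, Dnai, Cfap, Rsph or Tekt, and the single genes Foxj1, Ccdc39, Ccdc40, Ccdc153, Tmem212, Dynlrb2, Wdr63, Spef2 and Hydin. This gave 60 genes of 32883 in the table. Choice by name also took in genes expressed outside motile ciliated cells, such as Cfap36. Of these, 55 had enough counts to be tested, beside 15439 genes tested in all. Foxj1, the transcription factor that switches on the motile cilium programme, was not analysed here.

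The study measured RNA in the hippocampus of 32 wild-type rat pups, with 1 hippocampus and 1 library per pup. IS control (n = 8) were pups of the iron-sufficient arm without insulin. ID control (n = 9) were pups of dams that ate a purified diet of 3 to 6 ppm iron from gestational day 3 until postnatal day 7. IS insulin (n = 7) and ID insulin (n = 8) had the same respective diets and received insulin through the nose 2 times a day from postnatal day 8 to postnatal day 21. Pups were killed on postnatal day 7 or 21, and which day applies to which library is not given, so the age of the control pups relative to the insulin pups is unsettled. Litters are not given either, so each p-value reflects only how much these pups varied. Vehicle treatment of the control pups is not described.

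A motile cilium is a ring of microtubule doublets around a central pair. Dynein motors stand on the doublets in outer and inner rows of arms and slide neighbouring doublets past each other, and radial spokes carry signals from the central pair to the arms. In the brain, ependymal cells carry tufts of such cilia that move cerebrospinal fluid, and epithelial cells of the choroid plexus, which secretes that fluid, carry cilia as well. The hippocampus itself borders the lateral ventricle. RFX factors, which bind a sequence called the X-box, and Foxj1 are the known regulators of many motile cilium genes.

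The promoters of 3 members with an X-box and of 2 without one, Dnah6 and Dnah8, are shown as examples. Each window runs from 250 bases before to 50 bases after the gene's start in RefSeq's annotation of the rat assembly GRCr8, 5′ to 3′ on the gene's strand, and capitals mark the X-box match, which lies on the opposite strand and so reads as its reverse complement here. Dnah12 encodes a heavy chain of inner dynein arms, Cfap44 encodes a protein that tethers an inner arm to the doublet (a role known from Tetrahymena and Chlamydomonas), and Hydin encodes a central pair protein. Dnah6 encodes another inner arm heavy chain, and Dnah8 an outer arm heavy chain.
Dnah12: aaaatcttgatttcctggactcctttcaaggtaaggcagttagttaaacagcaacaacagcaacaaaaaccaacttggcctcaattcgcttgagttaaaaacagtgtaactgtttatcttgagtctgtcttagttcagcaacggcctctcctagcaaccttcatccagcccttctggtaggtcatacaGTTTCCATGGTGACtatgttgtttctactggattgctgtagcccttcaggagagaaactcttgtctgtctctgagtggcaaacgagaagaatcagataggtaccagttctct
Cfap44: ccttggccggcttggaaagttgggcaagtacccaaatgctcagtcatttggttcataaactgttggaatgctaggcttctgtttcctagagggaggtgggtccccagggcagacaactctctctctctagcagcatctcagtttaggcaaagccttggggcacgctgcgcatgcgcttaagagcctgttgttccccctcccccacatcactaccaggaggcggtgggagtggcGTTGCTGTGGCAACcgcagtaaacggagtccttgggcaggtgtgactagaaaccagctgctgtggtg
Hydin: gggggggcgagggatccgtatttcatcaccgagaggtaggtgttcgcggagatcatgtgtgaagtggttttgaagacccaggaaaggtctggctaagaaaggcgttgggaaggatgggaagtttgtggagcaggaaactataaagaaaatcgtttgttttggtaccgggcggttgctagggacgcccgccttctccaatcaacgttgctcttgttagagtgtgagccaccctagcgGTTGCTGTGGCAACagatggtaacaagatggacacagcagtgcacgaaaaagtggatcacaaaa
Dnah6: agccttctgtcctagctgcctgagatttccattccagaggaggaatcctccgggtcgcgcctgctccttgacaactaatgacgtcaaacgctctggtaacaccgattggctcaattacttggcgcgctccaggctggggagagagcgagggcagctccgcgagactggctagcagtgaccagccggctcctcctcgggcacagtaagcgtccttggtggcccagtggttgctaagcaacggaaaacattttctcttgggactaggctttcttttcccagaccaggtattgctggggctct
Dnah8: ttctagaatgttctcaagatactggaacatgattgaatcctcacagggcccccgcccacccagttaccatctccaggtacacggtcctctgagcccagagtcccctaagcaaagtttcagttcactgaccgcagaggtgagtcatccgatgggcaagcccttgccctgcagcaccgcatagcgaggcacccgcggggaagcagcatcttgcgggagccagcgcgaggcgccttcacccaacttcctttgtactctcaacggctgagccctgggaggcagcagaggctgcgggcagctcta
These windows lie at chr16:1944502-1944801 on the plus strand for Dnah12, chr11:69789856-69790155 on the minus strand for Cfap44, chr19:55146216-55146515 on the plus strand for Hydin, chr4:106842315-106842614 on the minus strand for Dnah6 and chr20:8694345-8694644 on the plus strand for Dnah8. The match begins at position -62 relative to the start in Dnah12, -17 in Cfap44 and -14 in Hydin. Cfap44 and Hydin hold the same 14 letters, GTTGCTGTGGCAAC.

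The X-box was searched on both strands as GTNNCC, any 3 bases and then GNAAC. It was found in 7 of the 74 promoter windows of the 49 members that had an entry in the RefSeq table (9.46%). These were windows of Cfap298, Cfap44, Cfap45, Dnah12, Dnah2, Hydin and Tekt4. Among all 33469 rat windows of this length 2.06% held it. A form with a fixed centre, GTNNCC followed directly by ATGG and NNAC, stood in 4.05% of the members' windows (Dnah12, Dnah2 and Rsph9) and in 0.508% of all windows. The shorter sequence GTTGCC, which can lie inside either of these, stood in 27.0% of the members' windows, from 17 genes, and in 12.2% of all. A forkhead motif, GTAAACA, of the kind Foxj1 binds, stood in 6.76% of the members' windows and in 3.78% of all. No match in Dnah6 or Dnah8 says only that these letters are not in those 300 bases. Of the 16 members with a window that were called higher in any comparison below, 3 held the X-box and 0 the forkhead motif. Whether these motifs bear on the members' levels was not tested.

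Library totals were 19619345 to 28062630 counts, and the members together took 0.0385% to 0.0920% of them. Levels are given as CPM, the count scaled to the size of its library, with no division by gene length, so they are compared between libraries and never between genes. Of a list of 12 ependymal markers, 10 were in the table. The summed level of these 10 spanned 45.1 to 67.1 CPM (IS control), 50.2 to 82.3 CPM (ID control), 48.7 to 91.6 CPM (IS insulin) and 55.4 to 142 CPM (ID insulin). Rarres2, Enkur, Ak7, Calml4, Ccdc153, Dynlrb2, Mlf1 and Tmem212 had counts in each library, while Sntn, which marks mature cilium tips, had a median of 0 CPM in every group. Ependymal marker RNA was thus present in each library, and so was that of the 8 neuronal and hippocampal markers, whose sum was 1571 to 2401 CPM. In bulk tissue, fewer ciliated cells and less RNA per ciliated cell cannot be told apart.

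Choroid plexus RNA was present in very unequal amounts. The 15 choroid plexus markers had summed levels with a median of 372 CPM in IS control (range 37.5 to 3563), 2667 in ID control (1311 to 5977), 1099 in IS insulin (45.3 to 4594) and 3582 in ID insulin (347 to 6416). The groups overlapped, but the IS groups held 8 of the 9 libraries in which Ttr, the transthyretin gene of the choroid plexus, was under 500 CPM. A further library stood apart in the cilium genes themselves. ID insulin replicate 3 had the highest level of its group in 49 of the 55 tested members, and its median deviation from the 32-library mean was 1.38 on the log2 scale, against -0.01 to 0.50 for the 7 others of its group. Pairs of libraries within ID insulin had a chi-square for each gene of 10.0 to 106 on average, against 5.84 to 37.2 within the other groups.

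**Figure D1:**
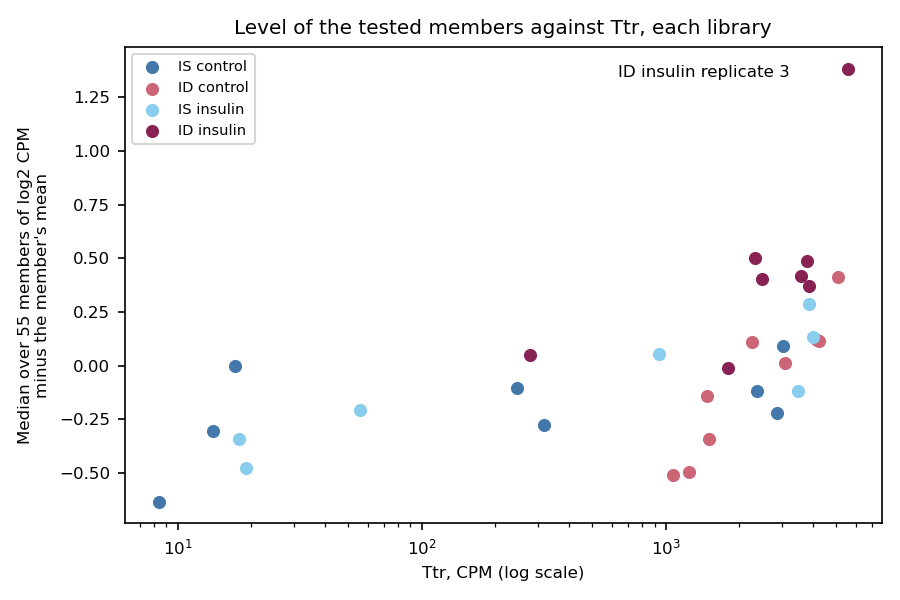
Level of the members in each library, as the median over 55 tested members of log2 CPM minus the member's mean over 32 libraries (vertical axis), against Ttr in CPM (horizontal axis, log scale), with points coloured by group. ID insulin replicate 3 is at 1.38 with the highest Ttr, 5561 CPM, while the other 7 ID insulin libraries lie between -0.01 and 0.50 and the lowest IS control library is at -0.63.

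Most of the members varied together across libraries, and these are called the block here. For each gene the Pearson correlation of log2 CPM with each other member was taken over the 32 libraries, and its median was above 0.5 for 37 of 55 genes. After the group means were removed it was above 0.5 for 33. One principal component held 66.8% of the members' variance and the next 5.98%, with genes not scaled to equal variance. Cfap65 (median r = 0.76), Dnah1 (0.76), Cfap43 (0.75) and Dnah12 (0.74) followed the block most closely. Outside it stood Dnah8 (-0.47), Dnah17 (-0.13) and Tekt5 (-0.11), the only tested members at or under 0, and Cfap97, Cfap70, Cfap410 and Cfap53 were between 0.01 and 0.05. These correlations are descriptions, since all points share the libraries and their scaling. ID insulin replicate 3 is among the libraries, and no other gene set was compared.

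In iron-deficient pups, 14 motile cilium genes were higher with insulin than without. Of the 55 tested members 14 were called higher in ID insulin than in ID control and 0 lower (edgeR quasi-likelihood test, adjusted p under 0.05 over all 15439 genes), against 3.82% of all genes called, 1.96% higher and 1.86% lower. The called members came from 7 roles and were Dnah1, Dnah2, Dnah6 and Dnah12 of the inner arms, Dnah5 and Dnah9 of the outer arms, Dnai2 and Dynlrb2 of the smaller dynein chains, Rsph14 of the radial spokes, Cfap65 of the central apparatus, Cfap99 and Cfap161, and the ependymal markers Ccdc153 and Tmem212. The members' median log2 change was 0.45, with 48 of 55 above 0, while the median over all genes was 0.0039. At an unadjusted p under 0.05, 30 members were higher and 3 lower, against 19.5% of all genes in either direction. Since the day of collection of the control pups is not given, age and insulin cannot be told apart here. No member separated the groups completely, as 0.0907% of all genes did upwards and 0.110% downwards. In all 14, between 1 and 7 of the 8 ID insulin libraries lay above the highest ID control library.

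**Figure D2:**
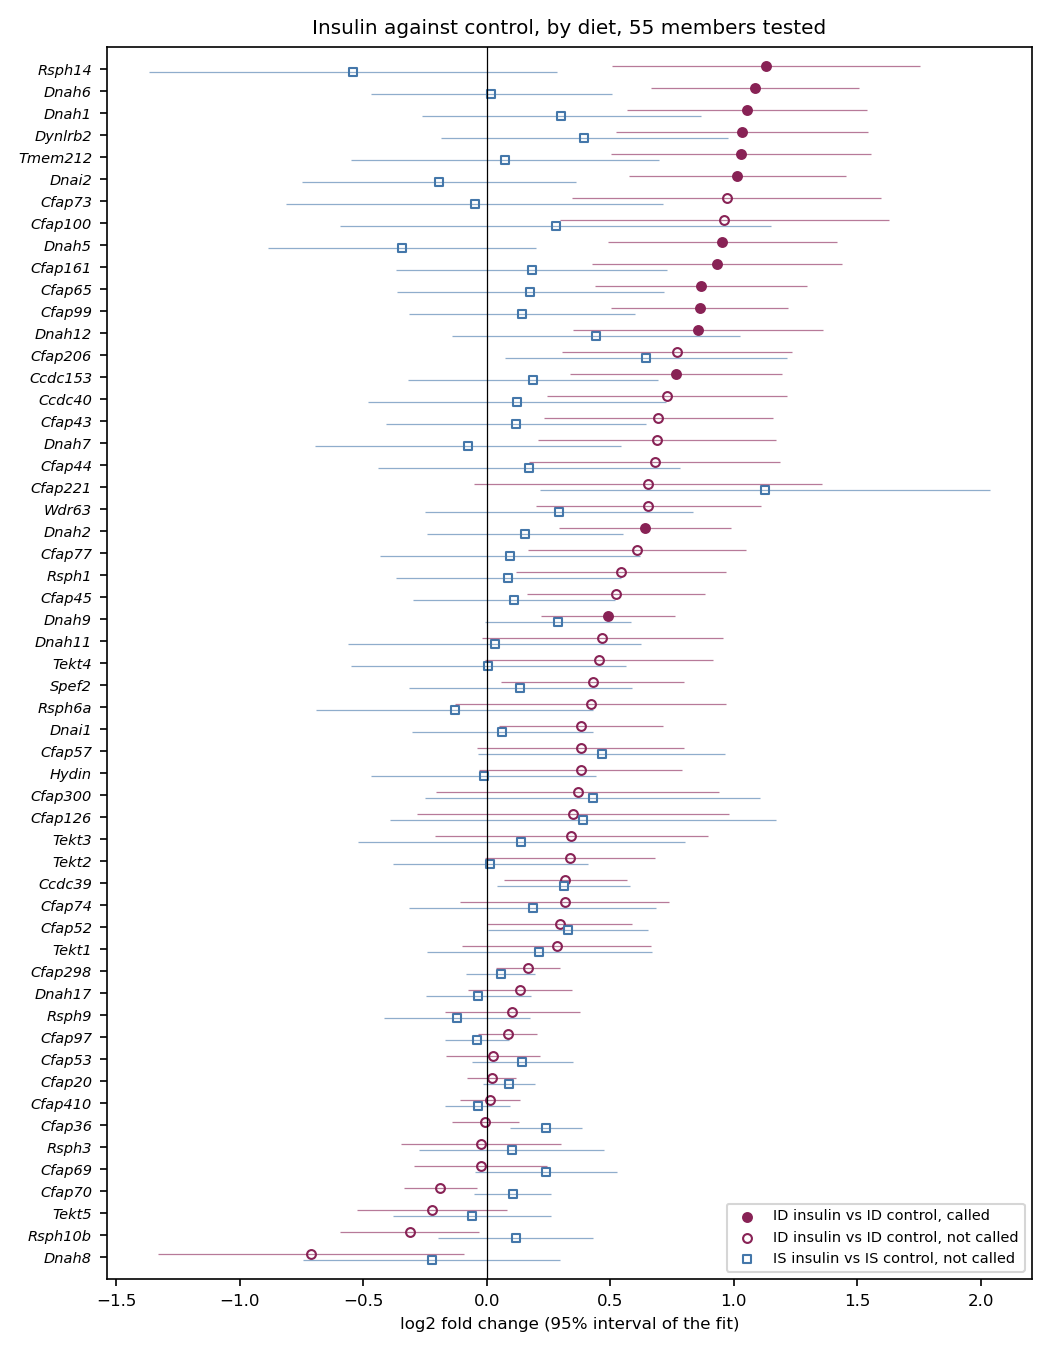
Log2 change with insulin of each of the 55 tested members (horizontal axis), in ID pups as circles and in IS pups as squares, with lines for the 95% interval of the fit and filled circles for called members. In ID pups 48 members are above 0, 14 are called and Dnah8 is the lowest, and in IS pups 42 are above 0 and none is called.

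Of the 5 inner arm heavy chains, all had an unadjusted p under 0.05 and 4 were called, with a median log2 change of 0.86. Dnah6 (ENSRNOG00000015581) was at 3.67, 4.81 and 7.90 CPM (lowest, median and highest) in ID control and at 6.75, 9.85 and 24.0 CPM in ID insulin. In the iron-sufficient groups it was at 3.72, 5.13 and 7.02 CPM without insulin and at 3.79, 4.12 and 8.60 CPM with it. Thus 7 of 8 ID insulin libraries exceeded each ID control library, and the other 3 groups overlapped widely. Dnah6 was 1.09 higher on the log2 scale (SE 0.21, adjusted p = 0.00374), a call kept when any 1 library was left out.

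Dnah1 (ENSRNOG00000026914), another inner arm heavy chain, was at 3.50, 5.97 and 7.58 CPM in ID control and at 6.80, 11.01 and 25.9 CPM in ID insulin. Of the ID insulin libraries 6 of 8 lay above all ID control libraries (log2 change 1.05, SE 0.24, adjusted p = 0.0112). Dnah12 (ENSRNOG00000059865) was at 5.48, 10.8 and 16.6 CPM in ID control and 10.8, 17.1 and 35.2 CPM in ID insulin (log2 change 0.86, SE 0.25, adjusted p = 0.0443). The lowest ID insulin library was level with the ID control median, and 5 of 8 lay above the ID control range. Dnah2 (ENSRNOG00000052688), one of the chains of the double-headed inner arm, was at 3.70, 6.35 and 10.7 CPM in ID control and 6.85, 9.22 and 17.9 CPM in ID insulin (log2 change 0.64, SE 0.17, adjusted p = 0.0294). There, only ID insulin replicate 3 lay above the ID control range. Dnah7, the remaining inner arm chain, was at 0.913, 2.02 and 3.10 CPM in ID control and 1.64, 2.89 and 7.21 CPM in ID insulin and was not called (log2 change 0.69, SE 0.24, adjusted p = 0.0931).

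Among the outer arm heavy chains, which give the cilium most of its beat force, 2 of 5 were called. Dnah5 (ENSRNOG00000048363), whose loss causes primary ciliary dyskinesia in humans and hydrocephalus in mice, was at 0.683, 2.02 and 4.28 CPM in ID control. In ID insulin it was at 2.98, 4.03 and 8.42 CPM. The lowest ID insulin library stood above the ID control median, yet only 2 of 8 exceeded the ID control maximum (log2 change 0.95, SE 0.23, adjusted p = 0.0159). Dnah9 (ENSRNOG00000004171), found along the distal shaft of human airway cilia, was at 12.0, 20.1 and 27.4 CPM in ID control and 19.4, 27.0 and 33.6 CPM in ID insulin (log2 change 0.49, SE 0.13, adjusted p = 0.0321). Its highest library was ID insulin replicate 7, not replicate 3. Dnah11, which stands in the proximal shaft there, was not called (log2 change 0.47, SE 0.24, adjusted p = 0.275), nor was Dnah17, known from sperm tails (0.13, SE 0.10, adjusted p = 0.499). Dnah8 is taken up separately at the end.

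The smaller dynein chains dock the motors and hold them together. Dnai2 (ENSRNOG00000024523), an outer arm intermediate chain, was at 0.673, 0.836 and 1.73 CPM in ID control and 1.22, 1.95 and 3.61 CPM in ID insulin, with 5 of 8 libraries above the ID control range (log2 change 1.01, SE 0.21, adjusted p = 0.00751). Dynlrb2 (ENSRNOG00000012450), a roadblock light chain common in ciliated cells, was at 2.30, 3.72 and 6.93 CPM in ID control and 5.49, 6.97 and 18.3 CPM in ID insulin. Of its ID insulin libraries 4 of 8 were above the ID control range (log2 change 1.03, SE 0.25, adjusted p = 0.0177). Wdr63, an inner arm intermediate chain, was at 4.26, 6.93 and 9.86 CPM in ID control and 6.60, 9.86 and 21.4 CPM in ID insulin and missed the threshold (log2 change 0.65, SE 0.22, adjusted p = 0.0925).

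**Figure D3:**
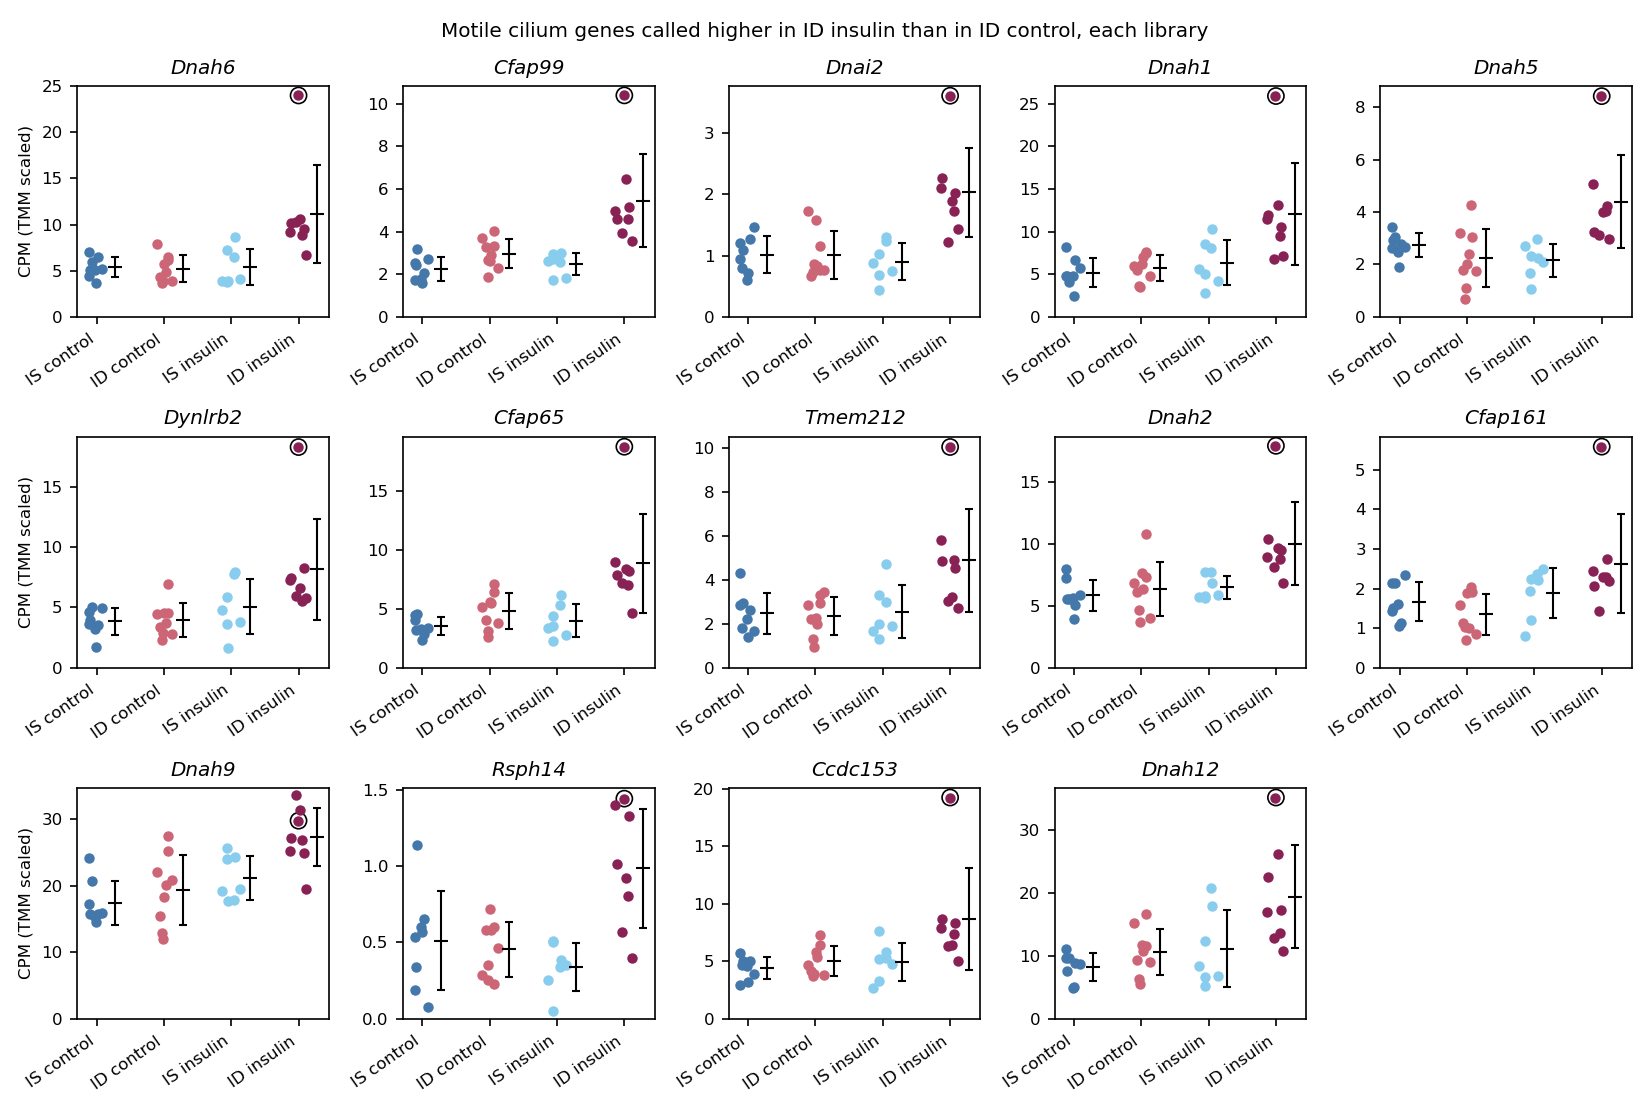
CPM of the called members in each of the 32 libraries, by group, with the mean ± SD as black bars; the circled point is ID insulin replicate 3. In each panel the ID insulin mean is above the other 3, and in most panels the circled library is the highest.

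Radial spokes were less uniform. Rsph14 (ENSRNOG00000001315) was a rare transcript, at 0.230, 0.4655 and 0.719 CPM in ID control and 0.397, 0.968 and 1.44 CPM in ID insulin, and 6 of 8 libraries lay above the ID control range (log2 change 1.13, SE 0.30, adjusted p = 0.0321). Rsph9, a spoke head protein mutated in human ciliary dyskinesia, was at 10.1, 12.7 and 15.3 CPM in ID control and 9.38, 13.1 and 19.7 CPM in ID insulin, with largely overlapping groups (log2 change 0.10, SE 0.13, adjusted p = 0.712). Rsph10b pointed the other way, at 15.3, 21.02 and 27.3 CPM in ID control and 12.9, 15.7 and 26.1 CPM in ID insulin (log2 change -0.31, SE 0.14, adjusted p = 0.205). Of the 6 tested spoke genes 1 was called, 4 were above 0 and the median was 0.26.

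Of the 6 central apparatus genes tested, 1 was called. Cfap65 (ENSRNOG00000056996), which is needed for sperm tail formation in mice and humans, was at 2.59, 5.15 and 7.07 CPM in ID control and 4.62, 8.03 and 18.8 CPM in ID insulin. In 6 of 8 ID insulin libraries it exceeded all ID control libraries (log2 change 0.87, SE 0.21, adjusted p = 0.0179). Hydin, whose loss causes hydrocephalus in mice, was at 15.5, 24.8 and 38.2 CPM in ID control and 14.6, 30.9 and 58.7 CPM in ID insulin. ID insulin held both the highest and the lowest Hydin value of these groups, and the gene was not called (log2 change 0.38, SE 0.20, adjusted p = 0.293). Spef2, a central pair projection protein, was at 1.12, 1.57 and 2.42 CPM in ID control and 1.55, 2.46 and 3.13 CPM in ID insulin (log2 change 0.43, SE 0.18, adjusted p = 0.182). Cfap221, another central pair projection gene, gave 0.65 (SE 0.34, adjusted p = 0.292) and Cfap69 gave -0.03 (SE 0.13, adjusted p = 0.939).

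The ependymal markers Ccdc153 and Tmem212 were both called. Ccdc153 (ENSRNOG00000039086) was at 3.75, 4.67 and 7.28 CPM in ID control and 5.01, 7.64 and 19.2 CPM in ID insulin (log2 change 0.77, SE 0.21, adjusted p = 0.0344). Tmem212 (ENSRNOG00000012608) was at 0.964, 2.25 and 3.47 CPM in ID control and 2.73, 4.70 and 10.1 CPM in ID insulin (log2 change 1.03, SE 0.26, adjusted p = 0.0212). For either gene 5 of 8 ID insulin libraries lay above the ID control range. The 5 tested ependymal markers that are not among the 60 genes gave mixed values. Mlf1 was at 0.70 (adjusted p = 0.0780) and Ak7, an adenylate kinase of cilia, at 0.68 (adjusted p = 0.111), while Calml4 was at 0.16, Enkur at 0.10 and Rarres2, a secreted protein, at -0.35 (adjusted p = 0.0605). None of these 5 passed the test.

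The remaining Cfap genes are a mixture, and 2 of the 20 tested were called. Cfap99 (ENSRNOG00000058434) was at 1.88, 2.88 and 4.05 CPM in ID control and 3.57, 4.78 and 10.4 CPM in ID insulin, above the ID control range in 6 of 8 libraries (log2 change 0.86, SE 0.17, adjusted p = 0.00632). Cfap161 (ENSRNOG00000012301), which lies inside the doublet microtubule, was at 0.7103, 1.12 and 2.05 CPM in ID control and 1.43, 2.29 and 5.58 CPM in ID insulin, above the range in 7 of 8 (log2 change 0.93, SE 0.25, adjusted p = 0.0297). Among the rest, the log2 changes went from -0.19 for Cfap70 to 0.97 for Cfap73, and 18 of the 20 were above 0. Cfap36, which binds the ciliary GTPase Arl3 and is also expressed outside motile ciliated cells, was at 81.6, 87.0 and 96.1 CPM in ID control and 78.2, 85.5 and 100.2 CPM in ID insulin (log2 change -0.01, SE 0.07, adjusted p = 0.972).

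The assembly rulers and the tektins gave no call in this comparison. Ccdc39 and Ccdc40 form the molecular ruler that sets the spacing of spokes and inner arms along the doublet. Ccdc40 was at 3.30, 5.55 and 8.93 CPM in ID control and 4.24, 9.14 and 17.99 CPM in ID insulin (log2 change 0.73, SE 0.24, adjusted p = 0.0757), and Ccdc39 gave 0.32 (SE 0.12, adjusted p = 0.140). Both had an unadjusted p under 0.05. Tektins are filaments built into the doublet wall. Tekt1 was at 4.19, 5.97 and 8.52 CPM in ID control and 4.64, 6.63 and 14.7 CPM in ID insulin (log2 change 0.28, SE 0.19, adjusted p = 0.420). Of the 5 tektins 4 were above 0 and none had an unadjusted p under 0.05; Tekt5 was at -0.22 (SE 0.15, adjusted p = 0.431).

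The size of this result rested in part on single libraries. Without ID insulin replicate 3, 9 members were called and the median was 0.34, and the calls of Ccdc153, Cfap161, Dnah12, Dnah2 and Rsph14 were lost. Dnah6 then gave 0.84 (adjusted p = 0.00513), Cfap99 0.68 (0.0101), Dnai2 0.87 (0.0165) and Dnah1 0.81 (0.0260). With replicate 5, whose thalamus and habenula markers were the highest of all libraries at 430 CPM, also left out, only Cfap99, Dnah6 and Dnai2 were called. Leaving out ID control replicate 3 or 5 gave 8 calls each. How many of all genes these fits called is not given here, so the lost calls do not single out the members. Of the ID control libraries, 5 carry the title number 69 and 4 the number 70, whose meaning is not given. With only those of number 69 in the fit 1 of 56 tested members was called (median 0.46), beside 150 of all 15566 genes. With only those of number 70, 4 of 56 were called (median 0.54), beside 232 of 15739 genes. Inside ID control the libraries of number 70 and 69 differed in 0 members (edgeR, 3 at an unadjusted p under 0.05, DESeq2 0; 0.220% of all genes called), with a median of -0.07.

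None of the 14 tested choroid plexus markers was called in ID insulin against ID control (edgeR, 0 at an unadjusted p under 0.05), and their median log2 change was 0.05. With the mean of this list as a covariate, 20 members were called and their median was 0.45. How many of all genes that fit called is not given here, so the count does not single out the members. Some markers of other cells were called: 3 of 6 meningeal markers were lower (Col1a1 -0.61, Slc6a13 -0.74 and Aldh1a2 -0.80), 1 of 6 thalamus and habenula markers was higher (Prkcd, 1.28, with 5 of 6 at an unadjusted p under 0.05), 1 of 8 astrocyte markers was lower (Gjb6, -0.48, while 5 of the 8 were above 0 and the list's median was 0.03), and of 7 hippocampal and neuronal markers 1 was lower (Wfs1, -0.38). The part of these in the result was not tested.

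With insulin in both groups, some motile cilium genes differed by diet. In ID insulin against IS insulin 10 members were called higher and 1, Dnah8, lower, against 2.45% of all genes called, 1.32% higher and 1.13% lower. The median was 0.55, with 47 of 55 above 0, and the median over all genes was -0.00057. The higher members were Cfap99, Dnai2, Cfap65, Dnah6, Rsph14, Dnah5, Ccdc40, Dnah7, Cfap44 and Dnah1. This comparison shares its ID insulin libraries with the preceding one, so its values stand beside those and are no second line of evidence.

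Cfap99 was at 1.74, 2.61 and 2.98 CPM in IS insulin, below all 8 ID insulin libraries, which began at 3.57 CPM (log2 change 1.11, SE 0.19, adjusted p = 0.00220). It was the only member whose groups did not overlap, and 0.220% of all genes were without overlap in this direction. Dnai2 was at 0.434, 0.884 and 1.30 CPM in IS insulin (log2 change 1.17, SE 0.24, adjusted p = 0.00790), and Cfap65 at 2.27, 3.56 and 6.22 CPM (1.14, SE 0.23, adjusted p = 0.00839). In both, 7 of 8 ID insulin libraries were above the IS insulin range. Rsph14 was at 0.0482, 0.355 and 0.508 CPM in IS insulin (1.505, SE 0.35, adjusted p = 0.0202) and Dnah6 gave 1.02 (SE 0.22, adjusted p = 0.0125).

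Dnah5 was at 1.06, 2.26 and 2.98 CPM in IS insulin (log2 change 1.01, SE 0.24, adjusted p = 0.0250). Ccdc40 was at 2.36, 4.36 and 7.36 CPM (1.07, SE 0.26, adjusted p = 0.0279). Dnah7 was at 1.06, 1.73 and 2.00 CPM (1.06, SE 0.27, adjusted p = 0.0301). For Dnah5 and Dnah7 7 of the 8 ID insulin libraries were above this range, and for Ccdc40 5 were. Cfap44, the inner arm tether protein, was at 4.30, 6.52 and 10.6 CPM in IS insulin and 7.70, 12.6 and 29.5 CPM in ID insulin (0.99, SE 0.27, adjusted p = 0.0470), and Dnah1 gave 0.90 (SE 0.25, adjusted p = 0.0489). Both of these were close to the threshold and lost the call when any of many single libraries was left out, 19 of 32 for Cfap44 and 22 of 32 for Dnah1.

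Here the choroid plexus values moved with the comparison. All 14 tested choroid plexus markers were above 0 in ID insulin against IS insulin, with a median of 0.69, though none was called (edgeR, 0 at an unadjusted p under 0.05). With their mean as a covariate 3 members were called instead of 11, Cfap99 (0.91), Dnai2 (0.92) and Cfap65 (0.88), and the median was 0.33 in place of 0.55. Without ID insulin replicate 3 the median was 0.38. Leaving out IS insulin replicate 3 gave 6 calls, leaving out IS insulin replicate 5 or 7 or ID insulin replicate 5 gave 7 each, and leaving out ID insulin replicate 1 or 7, the libraries lowest in the members, gave 17 each. How many of all genes these fits and the covariate fit called is not given here, so the changed counts do not single out the members. All 6 tested thalamus and habenula markers were above 0 as well, with a median of 0.68 and none called (edgeR, 6 at an unadjusted p under 0.05). The choroid plexus list mean, as a log2 deviation from its mean over libraries, had a median of 1.36 in ID insulin and -0.37 in IS insulin. The covariate fit therefore cannot separate it from diet. The thalamus and habenula list was not used as a covariate. The part of either list in the result was not tested.

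Iron deficiency without insulin gave no call with edgeR. In ID control against IS control 0 of 55 members were called by edgeR, against 0.291% of all genes (0.175% higher and 0.117% lower), with 9 members at an unadjusted p under 0.05 (11.9% of all genes). DESeq2 and limma voom each called 2, Rsph10b higher and Dnah17 lower, beside 114 and 242 of all 15439 genes. With edgeR, 1 was called without ID control replicate 5 (beside 40 of all genes), IS control replicate 2 (beside 36) or ID insulin replicate 3. The median was 0.15, with 41 of 55 above 0, and the median over all genes was 0.0051. Without ID control replicate 1 the members' median was 0.09. Rsph10b (ENSRNOG00000001036), a radial spoke gene, was at 10.4, 13.6 and 20.0 CPM in IS control and 15.3, 21.02 and 27.3 CPM in ID control. In 7 of 9 ID control libraries it lay above the IS control range (log2 change 0.58, SE 0.14, adjusted p = 0.0650). Dnah17 (ENSRNOG00000003028) was at 5.14, 6.03 and 7.84 CPM in IS control and 4.14, 4.67 and 5.21 CPM in ID control, and 8 of 9 ID control libraries lay below the IS control range (-0.39, SE 0.10, adjusted p = 0.0996). No member was without overlap here, against 0.0842% of all genes upwards and 0.0583% downwards. Tekt1 was at 2.62, 3.85 and 5.48 CPM in IS control (0.53 higher in ID control, SE 0.20, adjusted p = 0.278). The 14 genes later called with insulin lay here between -0.30 for Cfap161 and 0.45 for Cfap65.

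The choroid plexus list stood much higher in ID control than in IS control, with 14 of 14 tested markers above 0 and a median of 1.19 (0 called, 4 at an unadjusted p under 0.05). With its mean as a covariate the members' median was -0.04, in place of 0.15, and 20 of 55 were above 0. The list mean itself differed between these groups, so this fit cannot separate it from diet. The part of choroid plexus RNA in the members' values was not tested.

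Insulin in iron-sufficient pups gave no call. In IS insulin against IS control 0 of 55 members passed with edgeR, DESeq2 or limma voom, against 0.123% of all genes with edgeR (0.0712% higher and 0.0518% lower), and 5 had an unadjusted p under 0.05, all higher (16.3% of all genes). The median was 0.12, with 42 of 55 above 0, and the median over all genes was 0.011. Choroid plexus markers had here a median log2 change of 0.52, with 13 of 14 markers above 0 and none called (edgeR, 0 at an unadjusted p under 0.05), and with their mean as a covariate the members' median was 0.07. Without IS insulin replicate 2 that median was 0.06, and without IS control replicate 7 it was 0.07. Cfap36 was at 61.8, 79.9 and 89.0 CPM in IS control and 72.0, 91.9 and 109 CPM in IS insulin, above the IS control range in 4 of 7 (log2 change 0.24, SE 0.07, adjusted p = 0.103). Cfap221 was at 0, 0.298 and 0.464 CPM in IS control and 0.266, 0.639 and 0.842 CPM in IS insulin, above the range in 6 of 7 (1.13, SE 0.44, adjusted p = 0.197). Genes called in ID pups overlapped here: Dynlrb2 was at 1.71, 3.81 and 5.06 CPM in IS control and 1.64, 4.76 and 7.92 CPM in IS insulin, and Tmem212 at 1.38, 2.41 and 4.33 CPM and at 1.30, 1.99 and 4.73 CPM. Ccdc39 was at 10.9, 12.9 and 15.96 CPM in IS control and 12.3, 15.6 and 22.4 CPM in IS insulin (0.31, SE 0.13, adjusted p = 0.231).

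Whether insulin acted differently with diet was tested by the interaction, the log2 change with insulin in ID pups minus that in IS pups. No member was called by edgeR (0.939% of all genes were, 0.512% higher and 0.427% lower), 13 had an unadjusted p under 0.05 (17.1% of all genes), and DESeq2 and limma voom called 3 each, beside 423 and 491 of all 15439 genes. With edgeR, 3 were called without ID control replicate 2, 2 without ID insulin replicate 3 (1 higher and 1 lower) and 1 without ID control replicate 1 or ID insulin replicate 1. For these edgeR fits the count of all genes called is not given here, so the calls do not single out the members. The median was 0.32, with 41 of 55 above 0, and the median over all genes was -0.012. Without ID insulin replicate 3 the members' median was 0.20, with 36 of 55 above 0. Dnah5 came closest, at 1.30 (SE 0.35, adjusted p = 0.0575), followed by Dnai2 at 1.21 (SE 0.35, adjusted p = 0.0731) and Dnah6 at 1.07 (SE 0.32, adjusted p = 0.0823). In IS pups these 3 genes had changed with insulin by -0.34, -0.19 and 0.02. A call in ID pups beside none in IS pups is therefore not shown by edgeR to be a difference between the diets.

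Genes of the cilium outside the naming rule were read from a pair of lists. Of 67 further motile cilium genes, among them assembly factors, docking proteins and nexin links, 62 were in the table and 54 were tested. In ID insulin against ID control 1 was called (1.85%, against 3.82% of all genes), Drc7, a nexin-dynein regulatory complex subunit. It was at 0.660, 1.44 and 2.72 CPM in ID control and 2.18, 2.67 and 6.45 CPM in ID insulin (log2 change 0.84, SE 0.25, adjusted p = 0.0485). Of the 54 genes 51 were above 0, and the median was 0.36. At an unadjusted p under 0.05 were 26, against 19.5% of all genes. In ID insulin against IS insulin 0 were called by edgeR, against 2.45% of all genes, and the median was 0.37. At an unadjusted p under 0.05 were 24, all higher, against 20.1% of all genes. In ID control against IS control the median was 0.21 and in IS insulin against IS control it was also 0.21. With edgeR 0 were called in either, and 8 and 4 had an unadjusted p under 0.05. Of all genes, 11.9% and 16.3% had such a p there.

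Intraflagellar transport genes serve primary cilia, which most neurons and astrocytes carry, as well as motile ones. Of 33 on the list 32 were tested, and their medians were 0.06 in ID insulin against ID control and 0.04 in ID insulin against IS insulin. In each of these comparisons 2 were called (6.25%), against 3.82% and 2.45% of all genes. In the first comparison Wdr35, a subunit of the retrograde complex, was higher, from 44.5 to 52.1 CPM in ID control to 50.3 to 56.4 CPM in ID insulin (log2 change 0.14, SE 0.03, adjusted p = 0.0220). Arl3, the GTPase that releases cargo inside cilia, was lower, from 70.5 to 90.3 CPM to 57.6 to 73.1 CPM (-0.25, SE 0.07, adjusted p = 0.0317). In the second, Ift140 (0.30, SE 0.07, adjusted p = 0.0225), of the retrograde complex, and Ift81 (0.28, SE 0.07, adjusted p = 0.0315), of the anterograde complex, were higher. The motile cilium genes thus had larger medians than the transport genes in both comparisons, a difference given as a description.

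The relation of single genes to choroid plexus RNA was read from Ttr across libraries, as log2 CPM. The libraries form a pair of sets, 23 with Ttr at 938 to 5561 CPM and 9 with Ttr at 8.38 to 317 CPM, so each set is given alone. All 9 tested genes (Dnah8 and the 8 single genes named in the rule that are in the table) were tested by permutation of 100000 resamples in the larger set and exactly in the smaller one, adjusted over the 9. In the 23 libraries Ccdc40 rose with Ttr (Pearson r = 0.71, adjusted permutation p = 8.1e-04, Spearman rho = 0.72, adjusted p = 0.00216), and r was 0.70 without the 2 libraries farthest from the median of Ttr. Hydin gave r = 0.63 (adjusted permutation p = 0.00441, rho = 0.63, adjusted p = 0.00486), and 0.71 without those 2. Wdr63 gave r = 0.60 (adjusted permutation p = 0.00441, rho = 0.62, adjusted p = 0.00486) and 0.72 without them. Dynlrb2 gave r = 0.61 (adjusted permutation p = 0.00441, rho = 0.49, adjusted p = 0.0415) and 0.65 without them. Ccdc39 and Tmem212 also passed with Pearson's r (0.53 and 0.45), Tmem212 not with Spearman's (rho = 0.31, adjusted permutation p = 0.156), while Ccdc153 (0.35), Spef2 (0.41) and Dnah8 (-0.30) did not pass. In the 9 libraries with little Ttr none passed (exact permutation test, adjusted p = 0.410 or above), with r from -0.31 for Dnah8 to 0.64 for Wdr63. These permutations ran across the 4 groups. Over all 32 libraries, with both sets joined, each gene but Ccdc153 passed with Pearson's r. Dnah8 was there at r = -0.47 (adjusted permutation p = 0.00982). With the group means removed Dnah8 was at r = -0.19 (adjusted permutation p = 0.327) and did not pass. Over all 32 libraries with the group means removed, Ccdc40 (r = 0.56), Hydin (0.70), Wdr63 (0.66), Dynlrb2 (0.62) and Tmem212 (0.39) also passed, Ccdc39 did not (r = 0.35, adjusted permutation p = 0.0635) and Spef2 did (r = 0.53, adjusted permutation p = 0.00319).

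Dnah8 (ENSRNOG00000000542) went against most other members over the 32 libraries. It encodes an outer arm heavy chain best known from sperm tails. It was at 3.15, 7.05 and 11.8 CPM in IS control, 1.83, 3.45 and 7.47 CPM in ID control, 2.34, 5.96 and 9.31 CPM in IS insulin and 1.44, 2.20 and 4.56 CPM in ID insulin. The order of the medians was therefore IS control, IS insulin, ID control and ID insulin, with each neighbouring pair of groups overlapping, and the mean ± SD was 7.17 ± 2.60 (n = 8), 6.11 ± 2.43 (n = 7), 3.98 ± 1.78 (n = 9) and 2.44 ± 0.9751 CPM (n = 8). It was lower in ID insulin than in IS insulin (log2 change -1.32, SE 0.30, adjusted p = 0.0175), 5 of the 8 lying under the whole IS insulin range, and leaving out any 1 library kept the call. With the choroid plexus list mean as a covariate the value was -1.25 and the adjusted p 0.0541.

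The other comparisons of Dnah8 did not pass. ID control against IS control gave -0.83 (SE 0.25, 95% interval -1.35 to -0.31, adjusted p = 0.152), with 4 of 9 ID control libraries below all IS control libraries. ID insulin against ID control gave -0.71 (SE 0.30, interval -1.33 to -0.09, adjusted p = 0.184). IS insulin against IS control gave -0.22 (SE 0.25, interval -0.74 to 0.30, adjusted p = 0.709), and the interaction -0.49 (SE 0.40, interval -1.30 to 0.32, adjusted p = 0.558). Within groups the median correlation of Dnah8 with the other members was -0.19, and single libraries varied. Dnah8 was not alone in this, as Cfap97 was at -0.20 and Cfap53 at -0.07. These were the 3 members at or under 0 within groups. Its lowest ID insulin value was in replicate 3, where 49 members peaked, and its highest was in replicate 7, where 22 members were at their lowest. Likewise in IS insulin its lowest value was in replicate 2, where 23 members were highest, and its highest in replicate 7, where 29 were lowest. The control groups followed this only in part. In ID control its highest value, 7.47 CPM, was in replicate 3, where 10 members were lowest. Its lowest there, 1.83 CPM, was in replicate 2, where 11 members were highest. Yet in ID control replicate 1, where 27 members were highest, Dnah8 was at 6.09 CPM, the next to highest of the 9. In ID control replicate 5, where 24 members were lowest, it was at 3.45 CPM, the median of the group. In IS control its highest value was in replicate 2, where 23 members were also highest. In IS control replicate 7, where 25 members were lowest, Dnah8 was at 6.05 CPM, inside the range of the group.

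**Figure D4:**
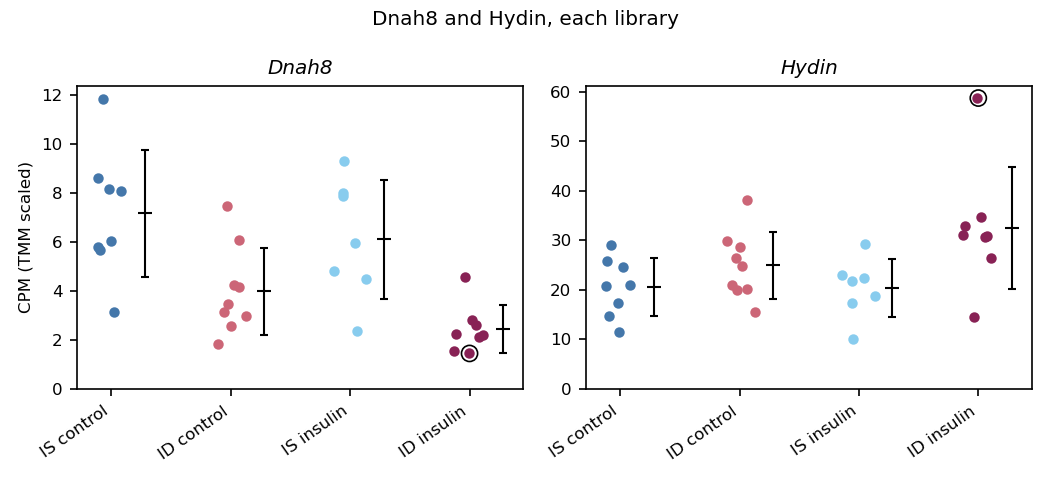
Dnah8 CPM in each of the 32 libraries by group, with the mean ± SD as black bars and ID insulin replicate 3 circled. The ID insulin libraries lie between 1.44 and 4.56 CPM and the IS control libraries between 3.15 and 11.8 CPM.

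Over the 32 libraries the non-member genes most like Dnah8 in log2 CPM were Crat, the mitochondrial and peroxisomal carnitine acetyltransferase (Pearson r = 0.72), Scara3, a scavenger receptor (0.71), Prnp, the prion protein gene (0.71), Hid1 (0.69) and Pex10, a peroxisome assembly factor (0.68), out of 12659 genes compared. After removal of the group means these were 0.44, 0.26, 0.41, 0.45 and 0.59. The most opposite were the homeobox gene Pbx3 (-0.76), the transferrin receptor gene Tfrc (-0.72), Fam89a (-0.71), Nif3l1 (-0.70) and Mns1, a protein inside motile cilia (-0.69). Within groups Pbx3 was at -0.47, Tfrc at -0.22 and Mns1 at -0.49. Tfrc, which rises when cells lack iron, spanned 106 to 127 CPM (IS control), 127 to 194 CPM (ID control), 117 to 165 CPM (IS insulin) and 173 to 225 CPM (ID insulin). Its medians, from 118 CPM in IS control over 120.4 in IS insulin and 169 in ID control to 205 in ID insulin, stood in the reverse order of those of Dnah8.

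The members that could not be tested were Cfap97d1, Cfap157, Cfap58l1, Rsph4a and Cfap58. Cfap157 had 205 counts over 31 libraries with at least 1, and Rsph4a, a spoke head gene, had 17 over 13 libraries. Cfap58l1 had 23 counts over 12 libraries and Cfap97d1 had 9 over 6. Cfap58 had no count in any of the 32 libraries.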

How the data were processed

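RNA of 32 rat hippocampi was sequenced. The deposited table holds raw counts per Ensembl gene, made by the authors. Per the submitters' processing notes, reads were trimmed with Trimmomatic 0.40 and the tools also include FastQC, HISAT2 2.1.0, featureCounts and edgeR. The notes name the builds Rnor_6.0 and mm10 without saying what each was used for. Strand and the treatment of multiply mapped reads are not given in the sources used here, so close paralogs and overlapping genes could share reads. No count column belonged to a sample outside the series.

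Groups came from the sample labels. Counts were scaled by TMM, filtered by group with filterByExpr and fitted with the quasi-likelihood F-test (two-sided) of edgeR 4.0.16 in R 4.3.3 over all 32 libraries leaving 28 residual degrees of freedom. The Benjamini-Hochberg adjustment ran over 15439 genes, and genes under 0.05 were called. Log2 CPM used a prior count of 2. "Above all" counts the libraries of a group beyond each library of the other. The steps were tested on simulated data. DESeq2 1.42.0, limma 3.58.1 (voom), other filters and scalings, covariates and leaving out libraries were the alternatives. DESeq2's missing adjusted p-values were kept as missing.

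Library totals of 19619345 to 28062630 leave genes near 1 CPM with few counts (Rsph14 had 435 in all), which limits their precision. Titles carry a number that is the same for all libraries of a group, except in ID control, so title and group cannot otherwise be told apart. Their second number did not pair the libraries.

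The members and lists were chosen with earlier results of these data known. Named with values are Dnah8, the single genes of the rule, members called in any comparison, the 2 most abundant members of each role and the 3 lowest p-values of each comparison. Other names are ends of ranges, motif matches and marker or pathway genes. Roles were assigned from general knowledge. Promoters are RefSeq's (GRCr8), where 49 of the 60 members matched by symbol. The day of collection, litter and sex of each pup were not used.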

Additional observations from a re-analysis of the deposited data

Results flagged for a closer look

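In 124 sets of one named gene in one group, 19 held a library whose gap to the next exceeded Dixon's 95% limit on the CPM scale. Chance gives about 1 in 20 for a single set, but these sets share libraries and genes that vary together, so the count of 19 cannot be read against that rate. Of the 19, 16 were ID insulin replicate 3, always as the highest library.

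In that library, Dnah6 was at 24.0 CPM with the next library at 10.6, Dnah1 at 25.9 (next 13.1), Dnah2 at 17.9 (next 10.3), Dnah5 at 8.42 (next 5.06) and Dnah7 at 7.21 CPM (next 4.10). Of the smaller dynein chains, Dynlrb2 was at 18.3 CPM (next 8.26), Dnai2 at 3.61 (next 2.26) and Wdr63 at 21.4 (next 11.01). Cfap44 was at 29.5 CPM (next 15.98), Cfap65 at 18.8 (next 9.01), Cfap99 at 10.4 (next 6.45), Cfap161 at 5.58 (next 2.74), Hydin at 58.7 (next 34.7) and Tekt1 at 14.7 CPM (next 7.89). The ependymal markers Ccdc153 and Tmem212 were at 19.2 CPM (next 8.67) and 10.1 CPM (next 5.83). The same library had the highest Ttr level of all, 5561 CPM; the part of choroid plexus RNA in these values was not tested.

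The 3 others lay in different libraries. Dnah8 in ID insulin replicate 7 was at 4.56 CPM, with the next at 2.81. Dynlrb2 in ID control replicate 1 was at 6.93 CPM, with the next at 4.56, and Dnah17 in IS control replicate 2 was at 7.84 CPM, with the next at 6.23.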

How the results depend on the processing

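Members called were counted again under each alternative. The count of all genes called is given for only some of these fits, so a changed count cannot be read as a change of the members alone. ID control against IS control (0) gave 2 with DESeq2, 2 with voom and 2 with only the compared groups in the fit. Of all genes, these fits called 114, 242 and 64, against 45 in the main fit. ID insulin against ID control (14) gave 7 with only these groups, 1 and 4 with ID control libraries of title number 69 or 70 only, and 3 without ID insulin replicates 3 and 5. ID insulin against IS insulin (11) gave 17 with DESeq2, 17 with voom, 5 with only these groups, 6 without ID insulin replicates 3 and 5, and 3 with the choroid plexus covariate. The interaction (0) gave 3 with DESeq2, 3 with voom, 1 with title number 70 only and 2 with the covariate. Leaving out each library in turn gave 0 to 1, 8 to 18, 0 to 0, 6 to 17 and 0 to 3 calls for ID control against IS control, ID insulin against ID control, IS insulin against IS control, ID insulin against IS insulin and the interaction. The causes were not tested, beyond the fewer libraries in some fits. The covariate and the fit without replicates 3 and 5 are part of the alternatives chosen with earlier results known, and edgeR's earlier quasi-likelihood method, added after seeing the data, gave 12 calls in ID insulin against ID control. No named gene changed the sign of a called value. Of the single-gene values, 166 lost and 71 gained a call.

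The second number in the titles does not pair the libraries (median correlation of deviations 0.0034 over 40 same-numbered pairs, 0.0038 otherwise). With it as a replicate block, 0, 22, 0, 9 and 0 members were called in the same order of comparisons. In ID control against IS control this fit called 33 of all genes. For the other comparisons that count is not given here, so the members' counts do not single them out.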
